A study of Mus musculus with 24 samples.

Results

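The comparison described here is that of the oligodendrocyte (OL) translatome on day 2 after spinal cord injury (SCI), termed dpi 2, with the OL translatome of naive cord. It rests on 6 of the 24 libraries of the series, namely the 3 OL libraries labelled naive and the 3 labelled 2 days after injury, and these were taken by their labels alone. The other libraries serve the estimate of spread, and for 2 of day 42 the title and the description name opposite kinds of RNA. Both groups were tamoxifen-induced OL-Ribotag mice, in which recombination in OLs adds a hemagglutinin (HA) tag to the ribosomal protein RPL22. Naive mice had no injury, and dpi 2 mice had a contusion of 50 kdyn at the thoracic level T9 with the IH impactor. The mice are labelled as female and 10 to 12 weeks old at SCI, whereas the methods of the study give a younger age. By its account the naive mice were collected together with those of the latest time point, so that they were weeks older and longer after tamoxifen than dpi 2 mice. Age, time after tamoxifen and injury cannot be told apart. Every library came from pooled cord of 2 mice, so that n = 3 pools per group. Ribosomes carrying the tag were pulled down with an HA antibody, and the mRNA bound to them is called OL RNA below. RNA of the same lysates before the pull-down, called total RNA, served as reference. The promoter that drives the recombinase is also active in Schwann cells, and these are not excluded by the pull-down.

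OLs make the myelin sheaths of the central nervous system and feed the axons they wrap. A contusion kills part of them within days and leaves others with damaged sheaths and axons. The pull-down aims at mRNA on tagged ribosomes of the surviving OLs, and mRNA of other cells comes along to some extent.

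The 6 OL libraries held 29075211 to 31954139 counts on genes. Of the 13 mature OL markers, all had counts in every OL library, with a summed level of 121650 to 164890 CPM in the naive and 103410 to 131210 CPM in the dpi 2 libraries. CPM are read counts divided by the library size, after scaling by the trimmed mean of M values (TMM). Markers of other cells were also present. The summed level of 15 microglia and macrophage markers was 77.1 to 97.8 CPM in naive and 157 to 203 CPM on dpi 2 (12 of 15 higher). That of 10 monocyte and neutrophil markers was 0.956 to 1.82 and 6.48 to 7.57 CPM (3 of 10 higher). That of 10 pericyte and fibroblast markers was 55.9 to 106 and 227 to 298 CPM (8 of 10 higher, and 5 without naive OL replicate 1 or 2). The defining neutrophil marker Ly6g and the monocyte marker Ly6c2 had no count in any of the 6 OL libraries. For 10 astrocyte markers naive replicate 3 and dpi 2 replicate 3 stood apart, at 14513 and 11182 CPM against 4324 to 5699 CPM in the other 4. For 10 Schwann cell markers the level was 45.5 and 50.3 CPM in naive replicates 1 and 2 and 394 to 942 CPM in the other 4. Dpi 2 replicate 2 held 2414 counts on 4 Y-linked genes although the mice are labelled as female, whereas the other 5 OL libraries held at most 7. On the first principal component of the 6 libraries, with 49.5% of the variance, the naive libraries (-87.2 to -56.8) lay apart from those of dpi 2 (58.5 to 94.4). The second component, with 23.3%, set dpi 2 replicates 2 and 3 apart from each other (80.7 and -86.5).

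**Figure D1:**
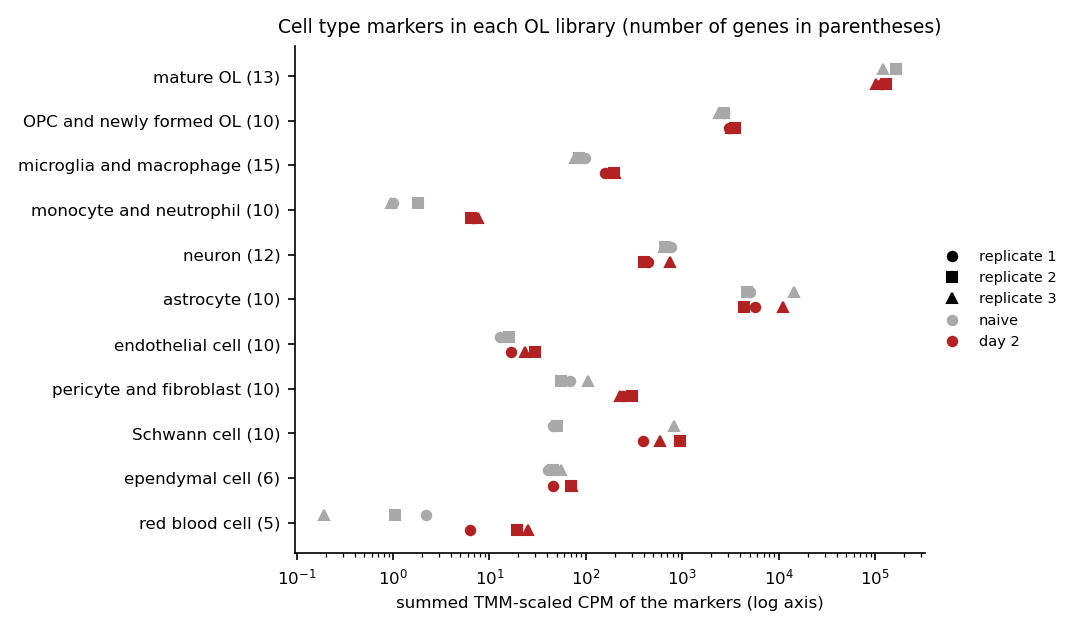
Summed TMM-scaled CPM (log axis) of the marker genes of 11 cell types in the 3 naive (grey) and 3 dpi 2 (red) OL libraries, with 1 symbol shape per replicate. Mature OL markers have the highest sums in all 6 libraries, microglia, pericyte and red blood cell markers are higher in each dpi 2 library, and replicate 3 of both groups carries the highest astrocyte sums.

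The OL translatome on dpi 2 differed widely from that of naive cord. Of 17167 genes tested with the quasi-likelihood test of edgeR, 1754 (10.2%) were called higher and 1176 (6.85%) lower on dpi 2, which here means a log2 change past 1 with q under 0.05, where q is the p adjusted by the Benjamini-Hochberg method. At any size of change 3154 genes (18.4%) had q under 0.05 and were higher and 3432 (20%) were lower. All 3 dpi 2 libraries lay above all 3 naive libraries for 1435 of the genes called higher, and below them for 1028 of those called lower. Over all tested genes such a separation was seen for 18.3% upward and 20.6% downward. Changes of large fitted size were mostly upward, since 581 of the called genes rose by more than 3 on the log2 scale and 214 fell by more than 3. Of the genes called higher, however, 256 had 3 counts or fewer in each naive OL library, and 169 had none there. For such genes the size of the rise is poorly set. In total RNA 1717 genes (10.0%) were called higher and 1086 (6.33%) lower. As in all bulk samples, fewer OLs and less of a transcript per OL cannot be told apart for the total RNA, and for OL RNA a change in which OLs survive cannot be told apart from a change within them. The share of upward calls rested on the scaling, as library sizes alone gave 2082 higher and 798 lower (72.3% higher, against 59.9%). Without dpi 2 OL replicate 3 it was 47.6%, with 1488 higher and 1641 lower.

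To separate OL genes from mRNA of other cells that comes along in the pull-down, the filtration of the study was applied. A called gene passed if its enrichment in OL over total RNA changed past 1 (log2) in the same direction with q under 0.05, or if it was enriched past 1 in OL RNA with q under 0.05 both in naive cord and on dpi 2. In all, 556 genes (3.24%) gained and 469 (2.73%) lost enrichment past 1 with q under 0.05. The balance rested on the scaling and on single libraries, with 303 gains and 823 losses when TMM took a total RNA library as reference, and 285 and 805 without dpi 2 pool 3. The filtration left 359 genes (2.09%) as higher and 280 (1.63%) as lower. These numbers were 307 and 400 with an offset for length and GC content, and 247 and 418 with a total RNA library as TMM reference. Of the 359 and 280 genes, 352 and 278 had separated groups. Of the genes called higher 1179 were also higher in total RNA at q under 0.05 and 33 were lower there, and of those called lower 711 were lower and 21 higher. Among the genes called higher, 256 had 3 counts or fewer in each naive OL library, and only 11 of these passed. The number passing as higher was 201 and 184 without naive OL replicates 1 and 2, 217 and 230 without dpi 2 OL replicates 1 and 2, and 236 without dpi 2 pool 3. The number passing as lower was 426 without dpi 2 OL replicate 1 and 464 without naive OL replicate 3.

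**Figure D2:**
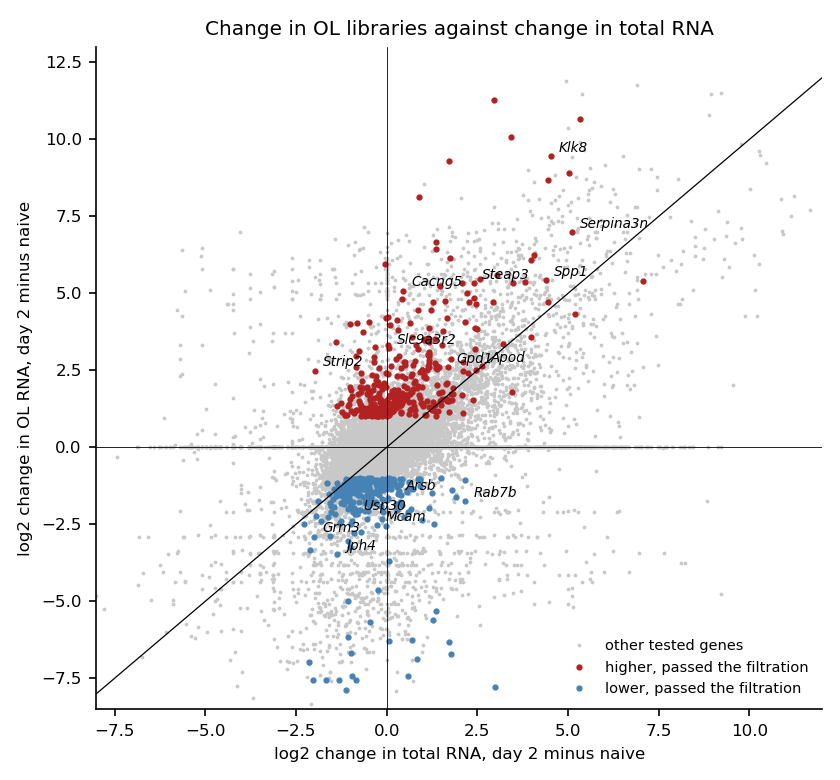
Log2 change on dpi 2 in OL RNA (y axis) against that in total RNA (x axis) for all tested genes, with genes that passed the filtration in red (359 higher) and blue (280 lower) and the diagonal marking equal change. Klk8, Cacng5 and Slc9a3r2 lie far above the diagonal, Mcam, Arsb and Rab7b lie below it, and Apod lies on it.

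The most secure rises, that is those with the smallest p among genes that passed the filtration with separated groups, began with Serpina3n. Serpina3n (ENSMUSG00000021091, chr12:104406729-104414329 on GRCm38), a secreted inhibitor of serine proteases, was at 86.4, 47.2 and 44.9 CPM in the naive and 7634, 7457 and 7616 CPM in the dpi 2 OL libraries, a 127-fold rise (log2 change 6.99 ± 0.24, q = 5.05e-14). Values of a group are given in the order of its 3 replicates, and ± is the standard error of the log2 change. Its 3 dpi 2 values lay within a few percent of each other, and in total RNA the gene rose by less (log2 change 5.1). Klk8 (chr7:43797577-43803826), a secreted kallikrein protease also called neuropsin, went from 0.798, 0.592 and 0 CPM to 316, 352 and 291 CPM (log2 change 9.45 ± 0.51, q = 3.42e-11). Its enrichment changed by 4.97 on the log2 scale (q = 9.43e-05), from a gene depleted from OL RNA in naive cord (-2.11) to one enriched there on dpi 2 (2.86). Spp1, the secreted matrix protein osteopontin, was at 4.33, 5.42 and 4.97 CPM in naive and 169, 243 and 219 CPM on dpi 2 (log2 change 5.42 ± 0.23, q = 1.93e-12). It stayed depleted in OL RNA at both times, with an enrichment of -4.85 and -3.82, and it is also a product of macrophages. Col2a1, a fibrillar collagen chain, rose from 16.9, 15.5 and 14.3 to 177, 225 and 156 CPM, about as much as in total RNA (3.58 ± 0.20 against 3.98). Vgf, a secreted neuropeptide precursor, rose from 7.101, 8.55 and 7.19 to 60.2, 75.02 and 95.2 CPM (log2 change 3.33 ± 0.17, q = 1.67e-11).

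Of the same 12 genes, Fxyd7, a small regulator of the sodium pump, was at 5.88, 6.18 and 6.43 CPM in naive and 62.97, 68.98 and 45.1 CPM on dpi 2 (log2 change 3.26 ± 0.15, q = 4.12e-12). The total RNA did not show this rise, with a log2 change of -0.33 (q = 0.0519). Slc9a3r2, a scaffold that holds transporters at the membrane, went from 15.3, 15.9 and 13.7 to 161, 120 and 135 CPM (log2 change 3.22 ± 0.15, q = 7.44e-12), again with little change in total RNA (0.054, q = 0.808). Flot1, a protein of membrane rafts, rose from 59.8, 60.8 and 58.8 to 327, 382 and 309.9 CPM (log2 change 2.51 ± 0.12, q = 7.44e-12). The naive values of these 3 genes spread by little and no dpi 2 library came near them. Lypla2, which removes fatty acyl chains from proteins, rose by 1.71 ± 0.09 (q = 2.05e-11). Gpd1, glycerol-3-phosphate dehydrogenase, rose from 573, 674 and 890.2 to 4486, 4795 and 3632 CPM (log2 change 2.6 ± 0.15, q = 5.72e-11). The remaining 2 of these 12 genes, Junb and Fos, are described with the AP-1 genes.

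Of the 12 falling genes chosen in the same way, Usp30, which removes ubiquitin from mitochondria and so restrains mitophagy, fell from 198, 222 and 185 CPM to 55.4, 41.1 and 38.6 CPM (log2 change -2.16 ± 0.12, q = 3.34e-11). Jph4, a junctophilin that ties the plasma membrane to the endoplasmic reticulum (ER), fell from 303, 335 and 180.2 to 24.5, 16.2 and 33.4 CPM (log2 change -3.47 ± 0.24, q = 8.32e-10). Mcam, an adhesion molecule, fell from 161, 186 and 162 to 26.3, 23.6 and 39.3 CPM (log2 change -2.51 ± 0.18, q = 9.87e-10), whereas total RNA changed by -0.27 (q = 0.2305). The groups of all 3 genes were separated, which the choice required, and those of Jph4 lay farthest apart. Arsb, a lysosomal sulfatase, fell by 2.85-fold in OL RNA (log2 change -1.51 ± 0.11, q = 9.38e-10) and rose slightly in total RNA (0.31, q = 0.0236). Fnbp1, a protein that bends membranes, fell from 1734, 1913 and 1606 to 574, 454 and 519 CPM. The lipid transporter Abca2 fell from 3643, 3711 and 2749.6 to 1095, 967 and 981 CPM. Clmn, Olfml1, the kinesin Kif13b, the receptor Megf10, Gprc5b and the centriole protein Ccp110 fell by 1.3 to 2.4 on the log2 scale. Separation between the groups was a condition of the choice of all 12.

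**Figure D3:**
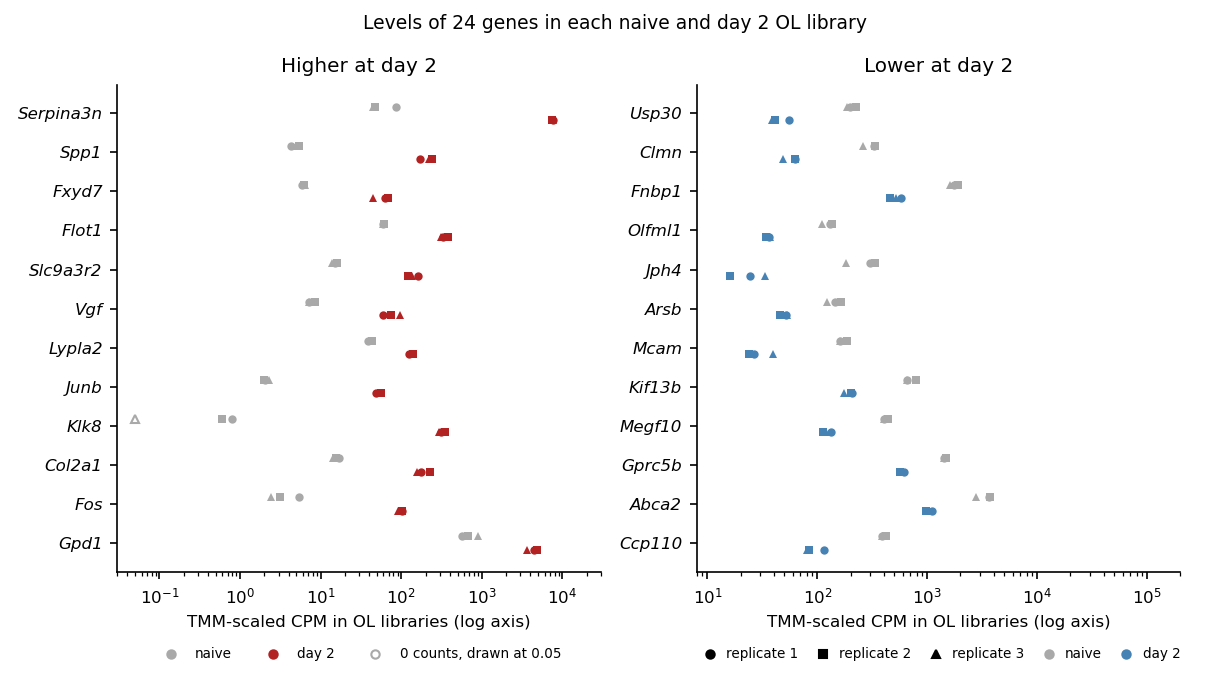
TMM-scaled CPM (log axis) of the 12 rising and 12 falling genes in each OL library, with naive in grey, dpi 2 in red or blue, and 1 symbol shape per replicate; an open symbol marks 0 counts. The 24 genes were chosen among those whose groups do not overlap.

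The called genes with most counts in the OL translatome moved in both directions. Apod, a lipid-binding lipocalin, rose from 7604, 7945 and 7818 to 37396, 60547 and 47283 CPM (log2 change 2.64 ± 0.16, q = 1.61e-10) and became the gene with most counts in dpi 2 replicates 2 and 3. Trf, the iron carrier transferrin, rose from 1932, 2041 and 1658 to 5510.2, 5982 and 4969 CPM (log2 change 1.55 ± 0.12, q = 3.69e-09). Cldn11, the tight junction protein of myelin, rose from 4280.2, 4278 and 3144 to 10549, 11786 and 6802 CPM (log2 change 1.32 ± 0.17, q = 3.78e-06). Apod, Trf and Cldn11 rose in total RNA to a like degree (2.64, 1.81 and 1.21). In the opposite direction App, the amyloid precursor protein, fell from 8490, 8893 and 6641 to 2943, 2228 and 3019 CPM (log2 change -1.55 ± 0.14, q = 2.61e-08). Enpp2, which makes lysophosphatidic acid, fell from 5392, 5425 and 3834 to 1765, 1517 and 1479 CPM (log2 change -1.62 ± 0.14, q = 1.07e-08). Sez6l2, Gpm6b and the kinesin Kif1b fell by 1.36, 1.26 and 1.10. None of these falling genes had a dpi 2 value inside the naive range.

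Groups of genes that work together were described next, with lists of members set by hand. A list's count is read against the share of all tested genes at q under 0.05, which was 18.4% higher and 20% lower, and its median against a median of 0 over all tested genes.

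**Figure D4:**
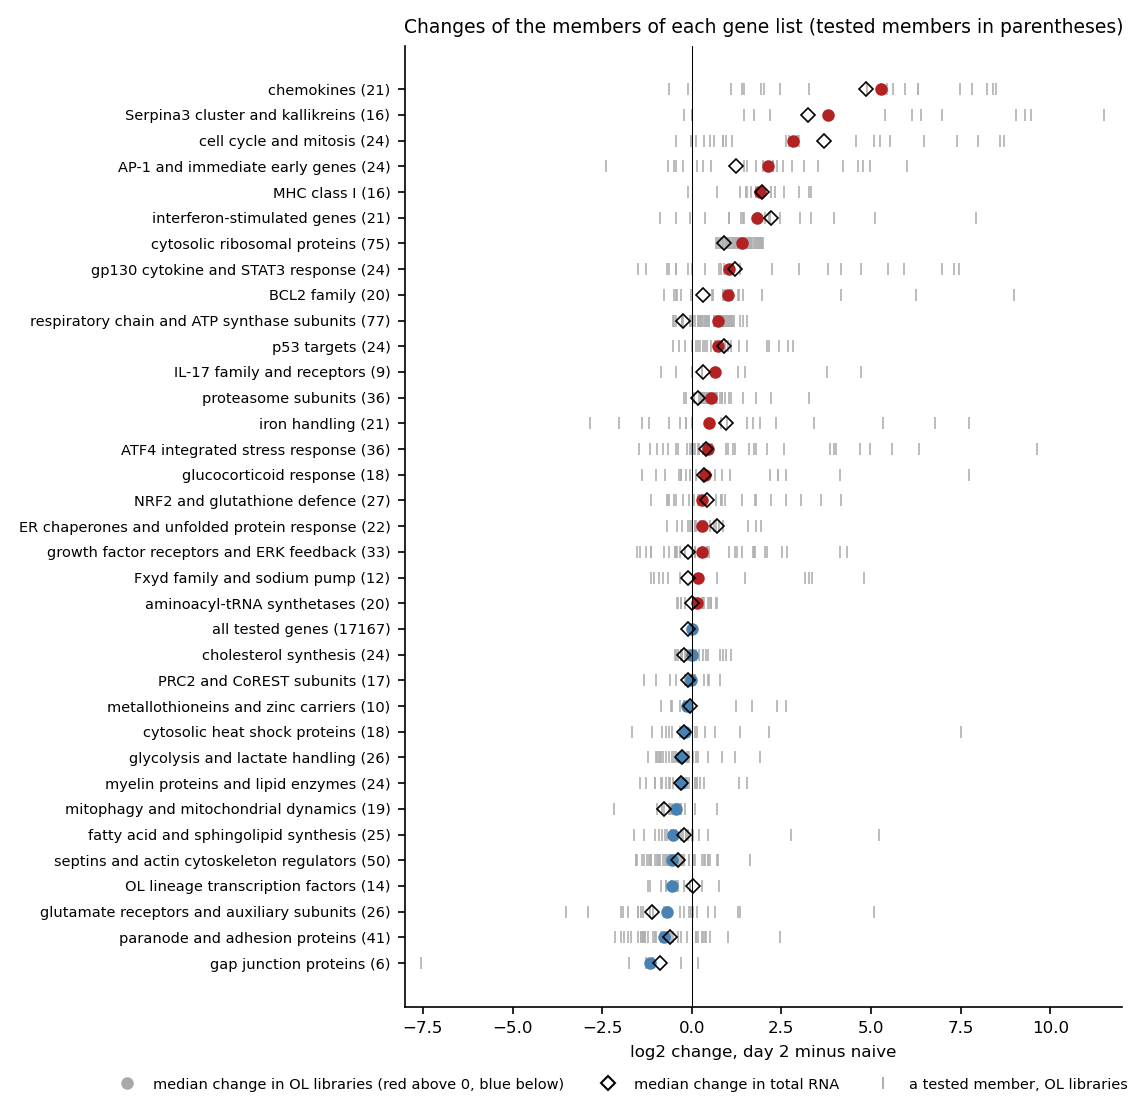
Log2 change on dpi 2 of every tested member (grey ticks) of 34 gene lists in OL RNA, with the list's median in OL RNA (filled circle) and in total RNA (open diamond). Medians in OL RNA run from -1.17 for gap junction proteins to 5.29 for chemokines, and those of respiratory chain subunits (0.73 in OL and -0.24 in total RNA) lie on different sides of 0.

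Cytokines of the interleukin-6 family signal through the shared receptor gp130 and the transcription factor STAT3. Of 24 genes of this response 13 rose and 4 fell (median 1.03). Among the ligands, Clcf1 rose from 0.6303, 0.254 and 0.306 to 14.8, 8.67 and 29.4 CPM (log2 change 5.46 ± 0.52, q = 5.46e-08). Osm, the ligand oncostatin M, had no count in the naive OL libraries and 57 over the 3 dpi 2 libraries, a level at least 18.1-fold higher against a floor of 3 counts over the naive group. Of the receptors, Osmr, which binds oncostatin M, rose from 0.252, 0.423 and 2.68 to 10.5, 10.2 and 27.1 CPM (log2 change 3.8 ± 0.64, q = 6.09e-05). Il6ra, which binds interleukin-6, rose from 1.13, 0.719 and 1.15 to 5.59, 3.04 and 5.66 CPM. Gp130 itself, Il6st, was at 242, 254 and 327 CPM and 266, 247 and 254 CPM (q = 0.598). Lifr, the receptor of leukemia inhibitory factor, fell from 131, 118 and 119.5 to 77.8, 83.8 and 68.8 CPM (log2 change -0.68 ± 0.15, q = 9.29e-04). Stat3 rose by 0.9 ± 0.10 (q = 6.97e-07), whereas the kinases Jak1 and Jak2 fell by 0.44 and 0.63. With the length and GC offset Lifr, Jak1 and Jak2 did not pass (q = 0.518, 0.122 and 0.0754). Of the feedback and target genes, Socs3, which shuts the pathway off, went from 1.13, 0.0423 and 0.268 to 66.97, 89.8 and 75.4 CPM (log2 change 7.33 ± 0.57, q = 3.20e-09). Bcl3, a partner of NF-kB, rose from 0.4202, 0.804 and 0.995 to 40.7, 48 and 47.7 CPM (log2 change 5.93 ± 0.41, q = 8.39e-10). Cebpd, a transcription factor of the acute phase, rose from 7.44, 6.18 and 9.18 to 182, 224 and 189.8 CPM (log2 change 4.71 ± 0.29, q = 2.09e-10). The 3 target genes rose in total RNA by 4.45 to 5.34 as well, and of the 3 only Cebpd passed the filtration. Clcf1, Osm, Osmr and Il6ra also rose in total RNA (4.27, 4.25, 3.435 and 1.65), and none of them passed. Their enrichment in OL RNA on dpi 2 was -0.17, -2.04, -1.52 and -1.88.

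Kallikreins are secreted serine proteases, and the Serpina3 genes encode secreted inhibitors of such proteases. Of 16 tested members of the Serpina3 cluster and the kallikreins 8 rose and none fell, and 5 passed the filtration (median 3.79, or 2.5 with genes without naive counts at their bound). The median was 2.12 without dpi 2 OL replicate 2, 6.16 with the filterByExpr filter and 6.21 in a fit of the 6 OL libraries only. Klk6, the kallikrein with most counts in these libraries, rose from 1624, 1608 and 734 to 4345, 5099 and 3739.7 CPM (log2 change 1.73 ± 0.25, q = 1.10e-05). Klk9 (chr7:43791891-43796757), the neighbour of Klk8 on chromosome 7, rose from 0.504, 1.02 and 0.0382 to 18.9, 33.2 and 13.2 CPM (log2 change 5.39 ± 0.93, q = 8.94e-05). Klk7 had 5 counts over the naive libraries and was at 4.35, 8.79 and 5.24 CPM on dpi 2. In the Serpina3 cluster on chromosome 12, Serpina3m went from 0.252, 0 and 0 to 24.04, 89.8 and 23.7 CPM (log2 change 9.05 ± 1.56, q = 8.51e-05). Serpina3c had 2 counts over the 3 naive libraries and 1517 over those of dpi 2, a ratio of 722 after scaling (95% counting interval 199.6 to 5968). Serpina3i had no count in naive and 14.3, 14.99 and 7.31 CPM on dpi 2, at least 298-fold higher. Members of the cluster are close copies of each other, so that reads may have been divided among them.

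The promoters of this list and of Socs3 are shown because STAT proteins bind a short palindrome. The letters TTCNNNGAA, on either strand, were in 4 of 14 promoters of the list for which a RefSeq sequence was at hand (28.6%), against 8.32% of 13177 tested genes, with a promoter taken as 250 bases before to 50 after each start on GRCm38.p6. The same letters were in 8.55% of the genes called higher and 5.15% of those that passed the filtration as higher. They were in 2 of 20 genes of the gp130 and STAT3 list (10%). Socs3 (chr11:117969472-117969560, minus strand) and Serpina3i (chr12:104262980-104263068, plus strand) are given with the match in capitals.
Socs3: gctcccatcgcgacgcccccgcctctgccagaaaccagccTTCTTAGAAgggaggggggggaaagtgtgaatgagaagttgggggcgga
Serpina3i: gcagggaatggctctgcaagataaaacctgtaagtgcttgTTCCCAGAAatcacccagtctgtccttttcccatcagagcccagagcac
The other 3 of the 4 promoters were those of Serpina3f, Serpina3g and Klk10, and these genes did not pass the test (q = 1.0000, 0.1001 and 0.148). The promoters of Serpina3f, Serpina3g and Serpina3i are near copies of each other around the match. They are therefore not independent cases, and the share of 28.6% counts each of them. Serpina3g passed without naive OL replicate 2 or dpi 2 OL replicate 2 (q = 0.0417 and 0.0345).

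Immediate early genes are switched on within minutes by many stimuli, and AP-1 is the dimer of FOS and JUN proteins that they encode. Of 24 members 15 rose and 1 fell (median 2.13). Fos rose from 5.38, 3.09 and 2.45 to 101, 103 and 92.1 CPM (log2 change 4.76 ± 0.27, q = 5.50e-11). Junb rose from 2.06, 1.99 and 2.26 to 48.7, 55.3 and 53.4 CPM (log2 change 4.64 ± 0.25, q = 3.42e-11). Both rose by more than in total RNA (1.6 and 2.47). Fosl1 went from 0.08404, 0 and 0.306 to 5.06, 9.56 and 11.8 CPM. Fosl2 went from 1.55, 0.254 and 2.68 to 23.8, 18.1 and 10.3 CPM (log2 change 3.53 ± 0.45, q = 2.89e-06). Egr1, a zinc finger factor, rose from 1.81, 1.69 and 3.06 to 11.8, 12.6 and 21.3 CPM. Ier3, a regulator of cell survival, rose from 0.04202, 0.677 and 0.956 to 10.6, 11.2 and 9.83 CPM. Myc, a driver of growth, rose from 3.53, 4.02 and 3.98 to 22.1, 13.3 and 19.7 CPM. Fosl1 and Myc rose in total RNA by 5.72 and 2.48 and did not pass the filtration, which 5 of the 24 members passed as higher and 1 as lower. The members with most counts were not past the test. Jun was at 211, 212 and 131 and 164, 151 and 148 CPM (q = 0.277, and 0.0216 as lower without naive OL replicate 3). Jund was at 318, 334 and 303 and 299.9, 463 and 304 CPM (q = 0.443). Arc, a gene of synaptic plasticity, was the one that fell, from 200.2, 238 and 147 to 49.3, 26.5 and 34.5 CPM (log2 change -2.41 ± 0.25, q = 1.52e-07).

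Stress that stalls protein synthesis raises the transcription factor ATF4, which turns on amino acid synthesis and transport and, when prolonged, death genes. This is the integrated stress response. Of 36 members 18 rose and 4 fell (median 0.47, and 0.91 without naive OL replicate 3), and 8 of the 36 passed the filtration as higher, as did 2.09% of all genes. Among the regulators, Atf4 rose from 88.9, 94.1 and 72.3 to 288, 293 and 193 CPM (log2 change 1.6 ± 0.13, q = 6.78e-09), with total RNA at 0.54. Atf5, a related factor, rose from 42.9, 39.6 and 55.3 to 197, 224 and 168 CPM (log2 change 2.1 ± 0.15, q = 1.02e-09). Atf3 rose from 0.462, 0.127 and 0.612 to 11.7, 17.3 and 9.87 CPM (log2 change 4.98 ± 0.41, q = 7.15e-09). Cebpb rose from 0, 0.254 and 2.26 to 29.3, 50.9 and 44.6 CPM (log2 change 5.59 ± 0.59, q = 2.22e-07). Ddit3, which encodes the death factor CHOP, rose from 23.7, 19.5 and 20.4 to 55.1, 57.7 and 33.6 CPM (log2 change 1.2 ± 0.16, q = 3.41e-06), but with an offset for length and GC content it did not pass (0.33, q = 0.179). Of the effectors, Asns, asparagine synthetase, rose from 6.68, 5.63 and 7.61 to 23.96, 18.4 and 24.4 CPM (log2 change 1.74 ± 0.23, q = 4.62e-06), whereas in total RNA it fell by 0.78 (q = 0.00763). Slc7a1, a carrier of basic amino acids, rose from 3.95, 5.12 and 8.3 to 41.2, 33.3 and 29.7 CPM (log2 change 2.58 ± 0.27, q = 1.89e-07) with no rise in total RNA (-0.21, q = 0.555). Chac1, which degrades glutathione, rose from 0.462, 0.296 and 0.421 to 9.86, 7.05 and 1.798 CPM (log2 change 3.97 ± 0.60, q = 1.95e-05). Pycr1, of proline synthesis, rose from 0.672, 0.338 and 0.383 to 11.3, 7.13 and 4.55 CPM (log2 change 4.03 ± 0.65, q = 4.08e-05). Asns, Slc7a1, Chac1, Pycr1 and Aldh18a1 gained enrichment in OL RNA by 1.47 to 3.65. Trib3 and Nupr1 rose by 6.34 and 4.69, and Gdf15, without a naive count, was at least 80.9-fold higher. In total RNA Atf3, Atf5, Ddit3, Trib3 and Nupr1 rose as well (5.26, 1.70, 0.92, 3.31 and 4.39). These genes and Gdf15 did not pass the filtration. The serine synthesis genes of the list went the other way. Psat1 fell from 1584, 1699.5 and 1299 to 1006, 1027 and 863 CPM (log2 change -0.66 ± 0.11, q = 6.04e-05). Phgdh fell from 367, 414 and 384 to 235, 236 and 199 CPM (log2 change -0.8 ± 0.09, q = 9.71e-07). The carrier Slc38a2 fell too (-0.98, q = 0.00132).

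ATF4 binds a composite element known as CARE, and 7 of the promoters that hold it are shown beside these values. The letters TGATGNAAN, on either strand, were in 9 of 30 promoters of the list (30%) against 3.04% of 13177 tested genes and 3.75% of the genes called higher. Membership in the list goes back to the same knowledge of ATF4 targets as the element, so that this share describes the list. Capitals mark the element, and all are from GRCm38.p6: Atf3 chr1:191183396-191183484 (minus), Asns chr6:7693210-7693272 (minus), Pycr1 chr11:120643803-120643891 (minus), Chac1 chr2:119351008-119351096 (plus), Nupr1 chr7:126625533-126625621 (minus), Slc7a11 chr3:50443614-50443719 (minus) and Vldlr chr19:27216779-27216867 (plus).
Atf3: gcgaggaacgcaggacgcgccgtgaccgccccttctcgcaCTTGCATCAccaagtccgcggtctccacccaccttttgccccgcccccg
Asns: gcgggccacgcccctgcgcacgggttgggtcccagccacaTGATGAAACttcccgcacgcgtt
Pycr1: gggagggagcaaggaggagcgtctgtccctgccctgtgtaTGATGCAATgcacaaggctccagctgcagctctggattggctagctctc
Chac1: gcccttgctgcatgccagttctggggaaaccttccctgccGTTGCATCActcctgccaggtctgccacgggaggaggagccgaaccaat
Nupr1: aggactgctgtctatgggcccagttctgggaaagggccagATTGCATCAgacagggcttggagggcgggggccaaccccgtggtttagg
Slc7a11: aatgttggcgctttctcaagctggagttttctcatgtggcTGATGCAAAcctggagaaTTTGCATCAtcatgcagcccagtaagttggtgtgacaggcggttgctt
Vldlr: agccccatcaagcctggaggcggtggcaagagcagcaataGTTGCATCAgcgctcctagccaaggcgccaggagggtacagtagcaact
Atf3, Asns, Pycr1, Chac1 and Nupr1 rose. Slc7a11, with 2 copies, was at 3.61, 3.38 and 12.2 CPM in naive and 7.71, 7.98 and 6.35 CPM on dpi 2 (q = 0.788, and 0.0403 as higher without naive OL replicate 3). Vldlr was lower (log2 change -0.39 ± 0.13, q = 0.0213), and with the length and GC offset its value was 0.068 (q = 0.783). It also did not pass with library sizes alone (q = 0.152), without dpi 2 OL replicate 3 (q = 0.0685) or without naive OL replicate 1 (q = 0.0545).

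The aminoacyl-tRNA synthetases charge tRNAs with amino acids, and several are known ATF4 targets. Of 20 cytosolic members 7 rose and 4 fell (median 0.14, and 0.047 and 0.044 without dpi 2 OL replicate 1 and naive OL replicate 3), with Cars (log2 change 0.69 ± 0.14, q = 5.31e-04) and Iars (log2 change 0.67 ± 0.14, q = 7.13e-04) at the top. With the length and GC offset 3 rose. In the ER, 11 of 22 chaperones and genes of the unfolded protein response rose and 2 fell (median 0.28, and 0.18 and 0.14 without dpi 2 OL replicate 1 and naive OL replicate 3). In total RNA 13 of the 22 rose and 3 fell (median 0.70). Their enrichment in OL RNA fell for 5 and rose for 1 at q under 0.05. Of the 22 genes 1 passed the filtration as higher, as did 2.09% of all genes. Manf, a secreted survival factor released under ER stress, rose from 59.8, 59.6 and 54.2 to 211, 192 and 201 CPM (log2 change 1.8 ± 0.12, q = 3.16e-10). Sdf2l1, a partner of ER chaperones, rose from 41.2, 33.5 and 26.2 to 134, 141 and 110 CPM. Creld2, another ER stress gene, rose from 43.1, 43.4 and 37.98 to 146, 119.9 and 102 CPM. Manf, Sdf2l1 and Creld2 rose in total RNA as well (1.21, 1.61 and 1.52). Creld2 passed the filtration, and Manf and Sdf2l1 did not. The main ER chaperone Hspa5 was at 1002, 954 and 704 and 1272, 1009 and 1053 CPM (q = 0.272). The number of ER genes that rose was 5 without naive OL replicate 3 or without dpi 2 OL replicate 1, 6 without dpi 2 pool 3, and 7 without dpi 2 OL replicate 3, without naive pool 3 or with the length and GC offset.

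Of 18 heat shock proteins 5 rose and 4 fell (median -0.20, and -0.35 and -0.39 without naive OL replicate 3 and dpi 2 OL replicate 1, where 8 and 7 fell). Members are given by kind, chosen after their values were seen. Of the small heat shock proteins, Hspb1 went from 2.14, 0.677 and 3.901 to 259, 192 and 796 CPM (log2 change 7.52 ± 0.78, q = 1.77e-07). Hspb8 went from 9.96, 8.38 and 33.1 to 62.6, 39.01 and 128 CPM (log2 change 2.15 ± 0.53, q = 0.00265). Both were highest in dpi 2 replicate 3, the library with most astrocyte markers of its group. Of the mitochondrial pair, for which total RNA did not pass, Hspe1 went from 35.3, 32.96 and 28.6 to 76.7, 83.9 and 85.2 CPM (log2 change 1.34 ± 0.12, q = 1.94e-08; total 0.24, q = 0.1202). Hspd1 went from 152, 143 and 142 to 236, 226 and 223 CPM (log2 change 0.65 ± 0.09, q = 9.56e-06; total 0.015, q = 0.9304). Of the constitutive cytosolic chaperones, Hspa8 went from 1742, 1817 and 1416 to 1073, 772 and 1199 CPM (log2 change -0.71 ± 0.16, q = 0.00122). Hsp90aa1 went from 999, 949.7 and 708 to 615, 497 and 596 CPM (log2 change -0.64 ± 0.14, q = 0.00109). Hspa1a, the inducible HSP70, was at 18.95, 15.6 and 6.85 and 7.67, 7.78 and 3.67 CPM (q = 0.07101, and 0.0172 as lower without naive OL replicate 3 and 0.0298 without the 2 day 42 libraries whose labels conflict). Hspe1 and Hspd1 are transcribed in opposite directions from 1 shared promoter. It is shown because it holds 2 overlapping matches, in capitals, to the heat shock element, a row of alternating GAA and TTC units. The element was in 3 of 13 promoters of the list and 0.531% of all, where the shared promoter counts for both Hspe1 and Hspd1. The stretch is chr1:55088019-55088116 on the plus strand of GRCm38.p6.
Hspe1: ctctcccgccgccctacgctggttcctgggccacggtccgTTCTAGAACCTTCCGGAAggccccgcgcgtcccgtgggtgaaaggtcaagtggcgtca

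Genes listed under NRF2 and glutathione defence, not all of them NRF2 targets, rose in 13 of 27 cases and fell in 5 (median 0.29). The median was 0.71 without naive OL replicate 3, 0.18 without naive OL replicate 1, 0.55 with the length and GC offset and 0.44 with a replicate block. Hmox1, heme oxygenase, went from 7.27, 6.13 and 13.2 to 161, 116 and 206 CPM (log2 change 4.17 ± 0.27, q = 3.26e-10), but total RNA rose by more (6.43). Srxn1, sulfiredoxin, rose from 46.3, 40.7 and 37.5 to 146, 129 and 150.2 CPM (log2 change 1.77 ± 0.11, q = 1.19e-10). Txn1, thioredoxin, rose from 22.5, 19.9 and 23.3 to 83.3, 86.4 and 134 CPM. Gpx1, glutathione peroxidase, rose from 16.1, 14.98 and 23.9 to 149.9, 154 and 360.3 CPM. Nqo1, the classic NRF2 target, fell from 46.1, 50.98 and 40.9 to 17.9, 25.4 and 19.7 CPM (log2 change -1.13 ± 0.16, q = 9.83e-06). Catalase, Cat, fell from 444, 459 and 418 to 322, 269.8 and 258 CPM (log2 change -0.64 ± 0.09, q = 5.05e-06). The gene of NRF2 itself, Nfe2l2, fell from 109, 123 and 119 to 101, 71.2 and 77.2 CPM (log2 change -0.49 ± 0.16, q = 0.0165) while it rose in total RNA (0.93). That fall did not pass with library sizes alone (q = 0.11) or without dpi 2 OL replicate 2 (q = 0.0566). Lpo, a peroxidase, rose from 24.1, 25.8 and 25.97 to 94.7, 92.5 and 76.7 CPM (log2 change 1.8 ± 0.20, q = 3.89e-07). Pcyox1l, related to an oxidase that yields hydrogen peroxide, rose from 69.3, 65.6 and 49.3 to 139, 164 and 124 CPM (log2 change 1.21 ± 0.15, q = 2.16e-06).

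OLs hold most of the iron of the brain and cord, which they need for the enzymes of myelin synthesis. Of 21 tested genes of iron handling 10 rose and 3 fell (median 0.47), and 5 fell without dpi 2 OL replicate 3. Steap3 (chr1:120190757-120272705), a reductase that lets iron leave the endosome, was at 1.22, 1.06 and 8.57 CPM in naive and 185, 163 and 94.1 CPM on dpi 2 (log2 change 5.33 ± 0.52, q = 7.59e-08). Its naive level was highest in replicate 3, and its enrichment in OL RNA rose from -1.57 to 1.84 (difference 3.41, q = 0.00604). Slc39a14, an importer of zinc and iron, rose from 11.2, 11.9 and 8.99 to 47.6, 61.2 and 54.2 CPM (log2 change 2.35 ± 0.19, q = 4.29e-09). Ftl1, the light ferritin chain, rose from 150.1, 137 and 117 to 429, 496 and 392 CPM (log2 change 1.7 ± 0.15, q = 1.92e-08) and by more in total RNA (3.27), whereas the heavy chain Fth1 was at 8120.2, 6038 and 6414 and 8899, 11376 and 7709 CPM (q = 0.05099). Fth1 passed as higher without naive OL replicate 1 (q = 0.049) or dpi 2 OL replicate 3 (q = 0.0451), and without the 2 day 42 libraries whose labels conflict (q = 0.0158). Hfe, which modulates iron uptake, rose from 5.25, 6.22 and 7.84 to 22.9, 29.2 and 20.3 CPM. Tfrc, the transferrin receptor, fell from 229, 200.4 and 231 to 162, 128 and 134 CPM (log2 change -0.64 ± 0.15, q = 0.00147). Ncoa4, which brings ferritin to the lysosome, fell from 44.8, 48.7 and 38.7 to 15.4, 12.6 and 22.9 CPM (log2 change -1.38 ± 0.20, q = 1.17e-05). With the length and GC offset the fall of Tfrc did not pass (q = 0.0699). Lcn2, a siderophore-binding lipocalin, was at 0, 0.127 and 0.306 and 16.1, 7.29 and 73.6 CPM (log2 change 7.72 ± 1.15, q = 1.58e-05), highest in dpi 2 replicate 3. Of 10 metallothioneins and zinc carriers 3 rose and 2 fell (median -0.14, from -0.33 without dpi 2 OL replicate 3 and -0.23 without naive OL replicate 1 to -0.059 without dpi 2 OL replicate 2, and 0.026 with library sizes alone). Mt1, a metal-binding protein, rose from 69.9, 79.5 and 479 to 636, 1055 and 1575 CPM. Mt2 rose from 26.5, 21.5 and 247 to 342, 490.1 and 992 CPM, with the highest value of each group again in replicate 3. Mt2 did not pass with the length and GC offset (q = 0.0834).

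Genes that decide on survival also moved. Of the 20 BCL2 family genes 12 rose and 1 fell (median 1.01, and 0.57 with the length and GC offset). The filtration was passed as higher by 1 of the 20, and by 2.09% of all genes. The number that rose was 6 without dpi 2 OL replicate 3 or dpi 2 pool 3, 7 with the length and GC offset and 5 in a fit of the 6 OL libraries only. The effectors of mitochondrial permeabilization both rose. Bax went from 22.8, 27.03 and 17.9 to 65.8, 59.3 and 45.1 CPM (log2 change 1.33 ± 0.16, q = 1.71e-06), which did not pass with the length and GC offset (q = 0.135). Bak1 went from 20.8, 18.9 and 24.98 to 46.1, 42.3 and 50.2 CPM (log2 change 1.1 ± 0.12, q = 5.78e-07). The protective member Mcl1 rose from 162, 169 and 161 to 354, 425 and 298 CPM (log2 change 1.13 ± 0.13, q = 5.60e-07). Of the BH3-only genes, which trigger death, Bik had no naive count and 2.31, 2.47 and 1.68 CPM on dpi 2, at least 52.7-fold higher. Hrk went from 0.168, 0.508 and 0.421 to 1.399, 0.7696 and 2.14 CPM (log2 change 1.96 ± 0.70, q = 0.0305). Hrk rested on 27 counts in naive and 112 on dpi 2, and its q was 0.0545, 0.120, 0.132 and 0.0575 without dpi 2 OL replicate 1, dpi 2 OL replicate 3, naive OL replicate 1 and naive OL replicate 3. Bnip3l, a receptor for mitophagy, fell from 465, 444 and 333 to 242, 277 and 212 CPM (log2 change -0.76 ± 0.12, q = 2.70e-05). Of 24 targets of p53, 8 rose and none fell (median 0.73, and 0.38 with the length and GC offset), and 14 rose with library sizes alone. The 3 Gadd45 genes, which slow the cell cycle under stress, were among them. Gadd45a rose from 33.3, 26.9 and 28.5 to 137, 141 and 102 CPM (log2 change 2.1 ± 0.19, q = 3.50e-08). Gadd45b rose from 5.08, 8.12 and 15.5 to 44.9, 62.6 and 48.2 CPM. Gadd45g rose from 4.202, 3.89 and 19.7 to 53.97, 55.5 and 69.1 CPM. Cdkn1a, the main p53 target, was at 169, 152 and 113 and 124, 272 and 74.9 CPM (q = 0.812, and 0.041 as lower without dpi 2 OL replicate 2). Mdm2, the ligase that degrades p53, was at 63.5, 64.98 and 47.7 and 97.4, 79.2 and 51.2 CPM (q = 0.117), but with a replicate block its q was 0.0295 and without dpi 2 OL replicate 3 it was 0.0144, both as higher.

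Of 18 genes of the glucocorticoid response 8 rose and 3 fell (median 0.38, and -0.16 without dpi 2 OL replicate 2, 0.84 without naive OL replicate 3, 0.58 without dpi 2 OL replicate 1, and 0.19 and 0.23 without naive OL replicates 1 and 2). Fkbp5 rose from 11.5, 17.3 and 13.7 to 43.5, 123 and 59.8 CPM (log2 change 2.41 ± 0.38, q = 2.81e-05). Plin4, a lipid droplet protein, rose from 15.2, 12.3 and 11.2 to 43.5, 136 and 24.6 CPM. Map3k6 rose from 0.882, 0.169 and 0.421 to 1.701, 22.04 and 2.22 CPM. These 3 genes were highest in dpi 2 replicate 2, the library with Y-linked reads, and without that library 5 of the 18 genes rose and 6 fell. The number that rose was also 5 without naive OL replicate 1 and without naive OL replicate 2. Klf9 fell from 137, 149 and 241 to 50.7, 99.8 and 50.9 CPM (log2 change -1.39 ± 0.24, q = 1.10e-04). Nr3c1, the receptor itself, fell from 276, 269.7 and 249 to 151, 137 and 111 CPM (log2 change -0.99 ± 0.11, q = 2.79e-07).

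The protein synthesis and energy machinery gave the most uniform counts. All 75 cytosolic ribosomal proteins rose (median 1.40, from 0.68 to 1.98), and all 75 rose in total RNA (median 0.90). Rps18 rose from 35.05, 32.2 and 31.2 to 122, 126 and 141 CPM (log2 change 1.98 ± 0.14, q = 9.87e-10). Rpl38 rose from 34.8, 29.9 and 31.5 to 106, 133 and 127 CPM (log2 change 1.93 ± 0.13, q = 5.73e-10). Rpl3 rose from 195, 189.5 and 178 to 279, 314 and 308 CPM (log2 change 0.68 ± 0.07, q = 2.43e-07), but not with the length and GC offset (q = 0.306). Of 77 nuclear-encoded subunits of the respiratory chain and ATP synthase 57 rose and 4 fell (median 0.73), against 2 and 21 in total RNA (median -0.24; 16.4% and 20.8% over all genes). Their enrichment in OL RNA rose for 62 of 77 and fell for none, where 8.36% and 6.57% of all genes did so at q under 0.05. Cox7c, of complex IV, rose from 20, 21.5 and 25.3 to 51.6, 70.4 and 71.7 CPM (log2 change 1.54 ± 0.15, q = 8.51e-08) with total RNA at 0.012 (q = 0.974). Uqcrq, of complex III, rose from 48.03, 50.7 and 66.9 to 127, 167 and 149.5 CPM (log2 change 1.42 ± 0.14, q = 7.19e-08). Sdha, the large flavoprotein of complex II, fell from 495, 531 and 555 to 373, 366 and 369 CPM (log2 change -0.51 ± 0.09, q = 1.35e-04). Of 36 proteasome subunits 29 rose and none fell (median 0.53). Psma1 rose from 42.02, 49.6 and 43.9 to 99.5, 87.3 and 90.3 CPM. The immunoproteasome subunit Psmb8 rose from 0.252, 0.254 and 2.75 to 7.18, 13.9 and 10.9 CPM.

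These subunits are short transcripts, and change on dpi 2 went with transcript length over the whole translatome. The shortest decile of tested genes (39 to 1303 nt) had a median change of 0.50 with 18.1% called higher and 1.22% lower, and the longest decile (6627 nt and more) had a median of -0.47 with 4.14% and 17.1%. Total RNA showed the same order with less at the short end (0.22 to -0.56). The median length was 2548 nt for genes called higher and 4710 nt for those called lower, against 3220 nt for all. With an offset for length and GC content fitted to each library, the ribosomal proteins kept 53 of 75 rises (median 0.55), whereas 14 respiratory subunits rose and 28 fell (median -0.22) and 7 proteasome subunits rose and 8 fell (median 0.02). The direction for respiratory and proteasome subunits thus depended on whether length and GC content were taken into account, and the cause was not tested.

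**Figure D5:**
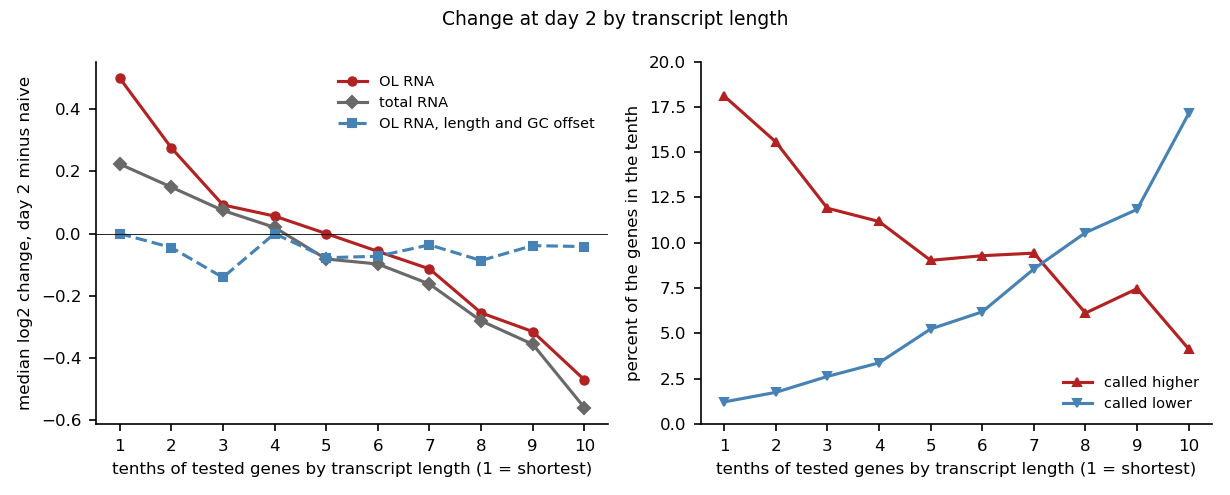
Left, median log2 change on dpi 2 in each decile of the tested genes by transcript length (1 = shortest) for OL RNA, total RNA, and OL RNA with a length and GC offset; right, percent of each decile called higher or lower in OL RNA. In OL RNA the median falls from 0.50 to -0.47 and the percent called lower rises from 1.22 to 17.1, and with the offset all medians lie between -0.14 and 0.

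Receptors and feedback regulators of growth factor signalling rose in 13 of 33 cases and fell in 7 (median 0.28). The median was -0.14 without dpi 2 OL replicate 3, -0.008 and 0.038 without naive OL replicates 2 and 1, and 0.47 without naive OL replicate 3, so that it has no settled sign. Fgfr4 rose from 1.597, 1.48 and 0.8798 to 22.9, 32.8 and 23.7 CPM (log2 change 4.33 ± 0.67, q = 2.56e-05). Fgfr2, the main fibroblast growth factor receptor of mature OLs, fell from 1210.1, 1249 and 798 to 565, 511 and 401 CPM (log2 change -1.14 ± 0.16, q = 1.10e-05). Erbb4, a neuregulin receptor, fell from 60.6, 54.02 and 52.5 to 23.8, 18.7 and 15.4 CPM (log2 change -1.53 ± 0.18, q = 1.22e-06). The Sprouty genes, which are induced by ERK and restrain it, rose. Spry1 went from 25.2, 24.8 and 20.6 to 98.5, 116 and 74.6 CPM. Spry2 went from 50.1, 56.2 and 61.7 to 136, 135 and 135 CPM. Spry4 went from 2.94, 3.47 and 5.09 to 14.6, 10.98 and 13.4 CPM (log2 change 1.76 ± 0.29, q = 4.98e-05). Spred3, a related inhibitor, rose from 2.69, 2.96 and 4.67 to 20.5, 20.9 and 24.02 CPM (log2 change 2.66 ± 0.20, q = 1.62e-09). Spry4 and Spred3 gained enrichment in OL RNA (2.01 and 2.18).

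Of 9 tested genes of the interleukin-17 family and its receptors 2 rose. Il17b was at 0.924, 0.931 and 0.306 CPM in naive and 10.7, 16.5 and 2.601 CPM on dpi 2 (log2 change 3.78 ± 1.06, q = 0.00698), and it did not pass the filtration. Its receptor Il17rb was at 15.3, 20.4 and 8.45 and 11.9, 10.5 and 10.02 CPM (q = 0.508). Il17ra, the other that rose, went from 21.5, 24.9 and 46.2 to 41.2, 45.8 and 56.96 CPM (log2 change 0.64 ± 0.24, q = 0.0409) with overlapping groups. It did not pass without naive OL replicate 1 or 2 (q = 0.27 and 0.219) or without dpi 2 OL replicate 1, 2 or 3 (q = 0.0537, 0.0811 and 0.202).

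Glutamate receptors and their auxiliary subunits fell in 10 of 26 cases and rose in 3 (median -0.70, and 5 fell in a fit of the 6 OL libraries only), and in total RNA 18 fell and none rose (median -1.12). Grm3, a metabotropic receptor, fell from 222, 229 and 176 to 34.4, 21.1 and 28.5 CPM (log2 change -2.9 ± 0.22, q = 3.20e-09). Gria4, an AMPA receptor subunit, fell from 79.3, 82.6 and 119.6 to 23.6, 15.4 and 34.8 CPM (log2 change -1.93 ± 0.22, q = 6.90e-07). Grm7, another metabotropic receptor, fell from 36.1, 38.3 and 13.2 to 7.29, 4.94 and 10.02 CPM. Cacng5, an auxiliary subunit of AMPA receptors, rose from 1.64, 2.67 and 0.803 to 76.7, 47.8 and 49.2 CPM (log2 change 5.09 ± 0.34, q = 4.46e-10), whereas total RNA changed by 0.46 (q = 0.208). The kainate receptor Grik3 rose from 9.03, 8.97 and 9.79 to 28.3, 27.2 and 15.3 CPM (log2 change 1.35 ± 0.25, q = 2.15e-04) while it fell in total RNA (-0.71). The summed level of 12 neuron markers in the OL libraries was 655 to 757 CPM in naive and 402 to 745 CPM on dpi 2, and its part in the falls was not tested. Of 12 genes of the Fxyd family and the sodium pump 4 rose and 3 fell, and 5 fell without dpi 2 OL replicate 3. Besides Fxyd7, Fxyd5 rose from 0.294, 0.0846 and 0.842 to 9.37, 14.3 and 11.97 CPM.

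Genes of the mature OL itself fell in part. Of 24 genes of myelin proteins and myelin lipid enzymes 11 fell and 2 rose (median -0.30), and in total RNA 9 fell and 3 rose with a median of -0.29. In OL RNA the median was -0.45 without naive OL replicate 3, -0.50 with the length and GC offset and -0.13 with library sizes alone. Mbp, myelin basic protein, was at 63254, 64506 and 50379 CPM in naive and 47724, 56568 and 45045 CPM on dpi 2 (q = 0.115), and Mag, Mog and Mobp also did not pass (q = 0.643, 0.382 and 0.697). Without naive OL replicate 3 both Mbp and Mog passed as lower (q = 0.0114 and 0.0366), and Mbp did so without dpi 2 OL replicate 2 (q = 0.028). Mog passed as lower with the length and GC offset (-0.71, q = 0.000753), and with the offset and a replicate block Mag did as well (-0.44, q = 0.00837). Cnp, a myelin enzyme, fell from 10373, 11480 and 8659 to 6352, 5989 and 4978 CPM (log2 change -0.82 ± 0.12, q = 1.12e-05). Ugt8a, which makes galactosylceramide, fell from 2039, 1880 and 1183 to 855, 519.8 and 714 CPM (log2 change -1.29 ± 0.22, q = 7.78e-05). The receptor Gpr37 fell from 1746, 1870.1 and 1480.1 to 689, 535 and 659 CPM (log2 change -1.44 ± 0.14, q = 7.35e-08). Aspa, which frees acetate from N-acetylaspartate, fell from 429, 447 and 261 to 227, 157 and 176 CPM. Gpr37, Ugt8a and Aspa were among the 4 members called lower, and Cldn11 and Trf the 2 that rose.

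Transcription factors of the lineage fell more in OL RNA than in total RNA. Of 14 tested 8 fell and 1 rose (median -0.57), and in total RNA 3 rose and 3 fell (median 0.04). Enrichment in OL RNA fell for 6 and rose for none. Olig2 fell from 353, 422 and 418 to 175, 147 and 194 CPM (log2 change -1.21 ± 0.17, q = 8.56e-06), with total RNA at -0.11 (q = 0.655). Olig1 fell from 1371, 1534 and 1727 to 910.4, 758 and 1129 CPM (log2 change -0.73 ± 0.12, q = 5.94e-05). Sox10 fell from 1106, 1239.6 and 886 to 787, 649.8 and 715 CPM (log2 change -0.59 ± 0.14, q = 0.00158). Neither Olig1 nor Sox10 was lower in total RNA. Myrf, which drives myelin genes, fell from 1853, 2071 and 1562 to 1409.6, 1324 and 1030.1 CPM (log2 change -0.54 ± 0.13, q = 0.00175), but did not pass with the length and GC offset (q = 0.112). St18, a zinc finger factor, fell from 195, 190.1 and 117 to 90.2, 70.7 and 65.1 CPM. The 1 that rose was Nkx6-2 (log2 change 0.76 ± 0.15, q = 3.23e-04), and this rise was not there with the length and GC offset (q = 0.459).

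Cell shape and contact genes held the most falls. Of 50 septins and regulators of actin 30 fell and 6 rose (median -0.56), and of 41 paranode and adhesion genes 27 fell and 2 rose (median -0.77). In total RNA 27 of the 50 fell and 11 rose (median -0.39), and 24 of the 41 fell and 4 rose (median -0.60). The filtration was passed as lower by 8 genes of each list, and by 1.63% of all genes. The myosin Myo1d fell from 743, 817 and 653 to 298, 234 and 225 CPM (log2 change -1.55 ± 0.15, q = 1.15e-07). The formin Daam2 fell from 1062, 1063 and 804 to 357, 363 and 286 CPM (log2 change -1.54 ± 0.14, q = 1.85e-08). Dock10, an activator of small GTPases, fell from 247, 261 and 230.3 to 116, 94.6 and 102 CPM. Anillin, Anln, fell from 1603, 1555 and 951 to 712, 642 and 431 CPM. Flna, filamin A, rose from 15.5, 12.8 and 23.4 to 43.05, 26.9 and 90.2 CPM, and by more in total RNA (2.76). Among adhesion genes, Prickle1, of planar polarity, fell from 95.8, 119 and 93.1 to 26.5, 21.5 and 22.1 CPM (log2 change -2.14 ± 0.12, q = 3.76e-11). Sema6a, a guidance protein, fell from 275, 289 and 251 to 84.3, 52.5 and 84.6 CPM (log2 change -1.88 ± 0.16, q = 1.73e-08). The adhesion molecule Ncam1 fell from 1593, 1561 and 1184 to 488, 454 and 590.4 CPM (log2 change -1.5 ± 0.13, q = 9.17e-09). Omg, a myelin glycoprotein, fell from 459, 505 and 423 to 188, 129 and 224 CPM. Cntn2, of the juxtaparanode, fell from 3184, 3342 and 2384 to 1675, 1523 and 1275 CPM. Nfasc, the paranodal neurofascin, was at 1715, 1829 and 1619 and 2075, 1888 and 1595 CPM (q = 0.438), and with the length and GC offset it passed as higher (q = 0.00697). With the length and GC offset 24 of the 50 and 23 of the 41 genes still fell (medians -0.36 and -0.58), so that both lists kept their direction. Of 6 gap junction genes 3 fell (median -1.17, and -0.28 without naive OL replicate 3), with Gjc3 from 563, 581 and 507 to 260.3, 236 and 184 CPM (log2 change -1.28 ± 0.12, q = 2.96e-08), while Gjb1 was at 986, 1080.3 and 757 and 1178, 1127 and 893 CPM (q = 0.293). Gjb1 passed as higher with library sizes alone (q = 0.0148) and as lower with the offset (q = 0.0458).

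Fuel supply and lipid genes were described next. Of 26 glycolysis and lactate genes 9 fell and 3 rose (median -0.29). The sign rested on naive OL replicate 3, as the median was 0.078 without it and 0.14 without naive pool 3. Without dpi 2 OL replicate 3 or with the length and GC offset, 14 fell (medians -0.56 and -0.6), and without naive OL replicate 1 or 2 the median was -0.55 or -0.53. Slc2a1, the glucose transporter, fell from 415, 421 and 368 to 228, 203 and 237 CPM (log2 change -0.85 ± 0.10, q = 1.48e-06). Slc16a1, the carrier that exports lactate to axons, fell from 299, 332 and 277 to 165, 136 and 190 CPM (log2 change -0.89 ± 0.14, q = 2.72e-05). Neither fell in total RNA (0.29 and 0.27). Pdk1, which holds pyruvate back from mitochondria, fell from 66.6, 56.3 and 48.7 to 26.7, 27.8 and 18.5 CPM (log2 change -1.23 ± 0.15, q = 2.05e-06). Pfkfb4, which adjusts glycolytic flux, rose from 12.1, 11.2 and 12.8 to 46.3, 47.4 and 40.7 CPM (log2 change 1.9 ± 0.21, q = 3.27e-07). Of 19 mitophagy and mitochondrial dynamics genes 11 fell and 1 rose (median -0.43), and 17 fell in total RNA. With Usp30, the mitophagy kinase Pink1 fell from 842, 807 and 797 to 394, 546 and 439.9 CPM. Optn, a mitophagy adaptor, fell from 78.1, 67.7 and 61.7 to 41.01, 36.5 and 29.3 CPM. Of 24 cholesterol synthesis genes 5 rose and 2 fell (median -0.0041, and from -0.16 to 0.16 in the alternatives). Pmvk was at the top (log2 change 1.09 ± 0.13, q = 1.38e-06), and Srebf2, their regulator, was among the falls (log2 change -0.47 ± 0.09, q = 2.82e-04). With the length and GC offset neither passed (q = 0.342 and 0.0529), nor did Fasn, below (q = 0.248). Of 25 genes of fatty acid and sphingolipid synthesis 13 fell and 3 rose (median -0.53). Scd2, the abundant desaturase of OLs, fell from 19164, 20103 and 18060 to 13821, 13145 and 11455 CPM (log2 change -0.58 ± 0.10, q = 7.16e-05). Fasn, fatty acid synthase, fell by 0.57. Cers2, the ceramide synthase of long chains, fell from 825, 859 and 628 to 465, 362 and 478 CPM (log2 change -0.83 ± 0.12, q = 1.35e-05). Sphk1, sphingosine kinase, rose from 0.08404, 0.0846 and 0.383 to 4.12, 11.1 and 6.35 CPM (log2 change 5.23 ± 0.64, q = 1.54e-06). Acsl5, which activates fatty acids, rose from 1.85, 2.07 and 4.74 to 15.2, 18.6 and 25.6 CPM (log2 change 2.77 ± 0.33, q = 9.33e-07). Of 17 subunits of the chromatin complexes PRC2 and CoREST 3 fell and 1 rose (median -0.0093, and from -0.2 to 0.17 in the alternatives).

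A further set of genes rose in OL RNA together with total RNA and did not pass the filtration. The 6 with the smallest p were Arpc1b, Lyz2, Rpl35, Rpl12, Rhoc and Rpl23a. Rpl23a was at 0.089 with the length and GC offset (q = 0.589). Lyz2, lysozyme of myeloid cells, was at 0.378, 0.254 and 0.497 CPM and 28.2, 40.1 and 28.3 CPM (log2 change 6.39 ± 0.33, q = 2.59e-11). Arpc1b, of the actin nucleator ARP2/3, was at 30.8, 32.6 and 38.5 and 296, 358 and 256 CPM (log2 change 3.16 ± 0.16, q = 2.42e-11). The GTPase Rhoc was at 27.8, 29.7 and 33.1 and 158, 152 and 172 CPM (log2 change 2.41 ± 0.14, q = 6.43e-11). Total RNA rose by 6.07, 3.79 and 2.93. Immune lists are given here, as their medians rose in total RNA too. These were 4.87 for chemokines, 1.95 for MHC class I and 2.21 for interferon-stimulated genes. Of the chemokine genes 13 of 21 rose in OL RNA (median 5.29, or 2.59 with genes without naive counts at their bound, and 1 passed the filtration). So did 13 of 16 MHC class I genes (median 1.91, and 1 passed) and 12 of 21 interferon-stimulated genes (median 1.82, or 2.91 without naive OL replicate 3, and 1 passed). Over all tested genes 2.09% passed as higher. The class I chain H2-D1 rose from 51.6, 46.5 and 68.3 to 237, 219 and 209 CPM. B2m, its partner chain, rose from 47.6, 43.3 and 100.2 to 219, 189.9 and 280.5 CPM. Ccl2 had 1 count over the naive libraries and 109 over those of dpi 2. Cxcl12, the 1 chemokine that passed, rose from 2.02, 2.96 and 3.56 to 8.504, 10.5 and 15.3 CPM (log2 change 2.0 ± 0.42, q = 6.05e-04). Ifit2, interferon-induced, fell in OL RNA from 45.7, 41.1 and 37.3 to 28.1, 16.9 and 22.3 CPM (log2 change -0.88 ± 0.17, q = 2.27e-04). Of 24 cell cycle genes 17 rose (median 2.81) and none passed the filtration, their median in total RNA being 3.68. Mki67, the proliferation marker, went from 0.168, 0.296 and 0.115 to 5.896, 9.88 and 11.1 CPM. Ccnd1, a cyclin, went from 14.9, 17.05 and 27.5 to 146, 119 and 187 CPM, whereas Pcna was at 93.8, 98.9 and 73.9 and 96.1, 92.1 and 74.6 CPM (q = 0.961, and 0.00112 as lower with the length and GC offset). The summed microglia and macrophage markers rose in the same libraries, as given above, and their part in these rises was not tested.

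Genes with 3 counts or fewer in each naive OL library and the highest level on dpi 2 were Timp1, Serpina3c, Ptx3, Slc10a6, Serpina3i and Ucn2. Timp1, an inhibitor of matrix proteases, had 4 counts over the naive libraries and was at 52.7, 56.3 and 199 CPM on dpi 2 (log2 change 10.78 ± 0.91, q = 1.14e-08), highest in replicate 3, and it rose by 8.9 in total RNA. Ptx3, a soluble pattern receptor, had 3 naive counts and 16.1, 7.37 and 31.5 CPM on dpi 2, a ratio of 454 (95% counting interval 155 to 2203). Slc10a6, a carrier of sulfated steroids, was at 8.66, 31.3 and 8.15 CPM and Ucn2, the peptide urocortin 2, at 10.2, 14.8 and 10.98 CPM on dpi 2. With no naive count these were at least 385-fold and 293-fold higher. Serpina3c and Ptx3 passed the filtration, and the other 4 did not.

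Other genes that the study names for this time point rose as well. Parvb, a protein of integrin adhesions, rose from 10.8, 11 and 14.1 to 133, 155 and 96.6 CPM (log2 change 3.42 ± 0.19, q = 6.43e-11). Tifab rose from 0.08404, 0.127 and 0.0382 to 1.59, 2.96 and 3.75 CPM (log2 change 5.01 ± 0.45, q = 2.14e-08). Prr7 rose from 0.966, 1.52 and 1.72 to 4.72, 3.44 and 10.3 CPM (log2 change 2.13 ± 0.39, q = 1.69e-04). Bcat2, a branched-chain aminotransferase, rose from 21.6, 22.6 and 17.8 to 64.6, 67 and 43.3 CPM (log2 change 1.5 ± 0.21, q = 7.89e-06). Pla2g3, a secreted phospholipase, was at 26.8, 27.9 and 64.1 CPM in naive and 61.2, 126 and 89.6 CPM on dpi 2 (log2 change 1.22 ± 0.39, q = 0.0169). The integrin chain Itgad was at 0.672, 1.23 and 2.49 and 5.03, 11.8 and 1.49 CPM (log2 change 2.06 ± 0.77, q = 0.0389). The groups overlapped for Pla2g3 and Itgad, and without dpi 2 OL replicate 2 neither passed (q = 0.114 and 0.312). Pla2g3 also did not pass without naive OL replicate 1 or 2 (q = 0.103 and 0.1), nor did Itgad in the same cases (q = 0.155 and 0.121), without dpi 2 OL replicate 1 (q = 0.0552) or with a replicate block (q = 0.105). Because the study picked these genes on the same libraries, their rise is not independent evidence.

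Few genes moved in opposite directions in OL and total RNA. In all 20 genes were called in opposite directions, and for 17 the change in enrichment was itself called. As the 20 were chosen by opposite calls on the same libraries, the latter is no separate support. Rab7b, a GTPase of late endosomes, fell in OL RNA from 55.7, 58.97 and 29.6 to 17.5, 11.5 and 14.1 CPM while total RNA rose (-1.74 against 2.16). Strip2 rose in OL RNA from 1.34, 1.61 and 0.842 to 6.46, 7.37 and 7.54 CPM while total RNA fell (2.49 against -1.98), and Inpp4a, a phosphatase of inositol lipids, did the same (1.03 ± 0.20 against -1.15). Rab7b and Strip2 were chosen after their values were seen, as the opposite genes with the greatest change in enrichment at over 5 CPM in one group.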

How the data were processed

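Per the file headers and the labels, the authors deposited 1 table of raw read counts per gene, made with HTSeq (version 0.10.0 in the processing notes of the submitters) after quality checks with FastQC 0.10.1 and alignment with STAR to mm10. It holds 21965 genes in 24 libraries (8 groups of 3), with 25840127 to 32987841 counts per library, and 0 columns were left out. Groups came from the labels. For 2 day 42 libraries title and description name opposite kinds of RNA, and the description, which the column name repeats, was followed. The counts were not altered. Symbols repeated on more than 1 row (16) were kept apart by gene ID.

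Here, edgeR 4.0.16 (R 4.3.3, limma 3.58.1) was run on the deposited counts. The quasi-likelihood test used TMM scaling, means of the 8 groups, and the 17167 genes with a count sum of at least 10. All 24 libraries shared 1 estimate of spread. Enrichment in OL over total RNA was tested on 18 libraries with a term for each tissue pool. A call needs a log2 change past 1 and q under 0.05. P-values measure the spread between pools of 2 mice. For the OL change this spread is taken over all 8 groups, and not from the 6 OL libraries alone. The OL and total RNA libraries of a pool enter that estimate as separate libraries. A fit of only the 6 OL libraries called 1173 genes higher and 656 lower. The main test of the OL change did not pair naive and day 2 pools, which are of different mice. Deviations from the group mean correlated between naive and day 2 OL libraries of the same number (r = 0.135, 0.139 and 0.328). Replicates 1 and 2 correlated as well across numbers (r = 0.136 and 0.125), so that a pairing by number is not established. The study's design has no block, so the fit with replicate numbers as a block is an alternative. Replicates differed by more than sampling noise (median chi-square per gene 2.95 to 21.1 between 2 libraries of a group). The scripts were tested on simulated data.

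A gene is named if it was among the leading 12 by p in each direction that passed the filtration with separated groups, the 6 called genes with the highest CPM in each direction, the 6 rising genes with the smallest p that did not pass, or the 6 highest on day 2 among those at 3 counts or fewer in each naive OL library, or if it is a member of the gene lists or named by the study for day 2. The members and lists were chosen with earlier results of these data known. Rab7b, Strip2 and the promoters printed were chosen after values were seen. Bounds use a floor of 3 counts over the group. Intervals (95%) and floors cover counting error only, and reads are not independent molecules. Coordinates are from GENCODE M21 (GRCm38), and promoters, for 13177 tested genes, from RefSeq on GRCm38.p6.

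Alternatives were DESeq2 1.42.0, its size factors, library sizes alone, other filters and sets of libraries, a replicate block, a length and GC offset, and each library left out. TMM with a total RNA library as reference, each tissue pool left out for the calls, filtration and lists, and the offset for single genes were added after seeing the data. Some items are not reported here.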

Additional observations from a re-analysis of the deposited data

Results flagged for a closer look

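Reads on Y-linked genes were found although all mice are labelled as female. Ddx3y was at 44.2 CPM in day 2 OL replicate 2. The 4 Y-linked genes held 2414 counts in that OL library and 2604 in the total RNA of the same pool, and at most 13 in any of the other 22 libraries. The OL change without this library is given in the report where a call rests on it.

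For 17 genes the change on day 2 in OL RNA differed from that in total RNA by a test of the difference itself (edgeR, paired fit), with both changes called and opposite in sign. The opposite calls were the condition of choice and come from the same libraries, so that this test is no separate support. The log2 change of the enrichment in OL over total RNA was -3.89 for Rab7b, -3.77 for Filip1l, -3.47 for Apbb1ip, -3.21 for Zc3h12a, -3.07 for Efemp1, -2.83 for Bdkrb2 and -2.47 for Ptk2b. It was 4.57 for Strip2, 2.72 for Pdzd7, 2.69 for Magee2, 2.405 for Slc18a3, 2.396 for Shank2, 2.27 for Kbtbd3, 2.23 for Slc35f1, 2.196 for Far2 and 2.18 for Inpp4a. The fitted value for Tmc8 was -10.8, which is no bound, since Tmc8 had no count in any day 2 OL library.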

How the results depend on the processing

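With every q under 0.05 counted at any size of change, 3154 genes were higher and 3432 lower in OL RNA, against 1754 and 1176 past a log2 change of 1. A fit of only the 6 OL libraries gave 1173 and 656. Library sizes alone left 546 genes lower in total RNA and 175 passing the filtration as lower. TMM with a total RNA library as reference gave 303 genes gaining and 823 losing enrichment, and moved the median change in enrichment of all genes from 0.054 to -0.18, so enrichment is read relative to that median. With 1 library or pool left out, the OL calls ran from 1380 to 1972 higher and 1004 to 1641 lower. Calls lower in total RNA ran from 714 (without naive OL replicate 2) to 1194. Gains of enrichment ran from 199 to 720 and losses from 332 to 806. Genes passing the filtration ran from 184 to 505 higher and from 208 to 464 lower. Gains were 241 and 199 without naive OL replicates 1 and 2, 293, 286 and 289 without day 2 OL replicates 1, 2 and 3, and 285 without day 2 pool 3. Losses were 754 and 806 without day 2 OL replicates 1 and 3, 793 without naive OL replicate 3, and 805 without day 2 pool 3. The cause was not tested.

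With the replicate numbers as a block, 1735 genes were called higher and 1233 lower. Of the 222 named genes, Mdm2 then passed and Itgad did not, and the block changed no other call among them. Vldlr (log2 change -0.39) was at 0.068 with the length and GC offset and at 0.058 with the block and the offset. Of the 200 named genes past the test, 22 lost it in at least 1 alternative, and among these 200 only Vldlr changed sign. Changes in genes of a few counts per library are limited by depth.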
